A study of Mus musculus with 360 samples.

Results

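The genes Mmp12, Chil3 and Spp1 were followed in lung, liver, kidney, heart and ovary of female mice exposed to 1,2-dichlorobenzene (1,2-DCB) or 1,4-dichlorobenzene (1,4-DCB), isomers that differ in where the second chlorine sits on the benzene ring. Every probe of these genes was taken: 3 for Mmp12 (Mmp12_84187, Mmp12_31879 and Mmp12_31440), 1 for Chil3 (Chil3_30648) and 1 for Spp1 (Spp1_30025), 5 of the 3154 probes and 3 of the 2759 gene symbols on the panel. The genes were chosen by their measured levels and exposed-to-control changes in these same libraries, which were known. Their differences between exposed and control animals are therefore a description. No p-value is printed for them, and whether a difference passed the threshold of the fit was partly fixed by the choice of genes, so nothing is read from those counts.

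The mice were B6D2F1/Crl (BDF-1) females aged 9 weeks, and tissue was taken on study day 5. The 1,2-DCB series held 37 animals at 0, 1, 10, 30, 100 or 250 ppm, and the 1,4-DCB series held 35 animals at 0, 1, 10, 50, 150 or 400 ppm. Each series had its own control animals at 0 ppm, and no other allele or agent is named in the labels. RNA was measured with TempO-Seq, in which pairs of detector oligonucleotides are ligated on a short stretch of each transcript and counted, on the mouse S1500+ panel of selected genes. Of 360 libraries, the submitters marked 326 as used in their analysis, and these were analysed: 70 from lung, 61 from liver, 51 from kidney, 72 from heart and 72 from ovary. Each library came from 1 animal, so replicates are animals. The 0 ppm groups held 10 animals in lung, heart and ovary, 9 and 7 in liver and 5 and 6 in kidney (1,2-DCB series first). The groups at 250 ppm held 7 animals in heart and ovary and 6 in the other tissues, and those at 400 ppm held 5 in each tissue. The groups between held 2 to 5 animals. Smallest were liver at 1 ppm and kidney at 100 ppm 1,2-DCB with 2 each, and kidney at 30 ppm with 3. RNA came from unsorted tissue, which for liver was the left lobe, so fewer cells of a type and less RNA per cell cannot be told apart.

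Mmp12 encodes macrophage elastase, a secreted metalloproteinase that cleaves elastin and other matrix proteins. Chil3 (also called Ym1) encodes a secreted chitinase-like protein without chitinase activity, made by alveolar macrophages and by other myeloid cells, and widely used in mice as a mark of alternative activation. Spp1 encodes osteopontin, a secreted phosphoprotein that binds integrins and CD44. Osteopontin is made by activated macrophages, and also by bile duct and kidney tubule epithelium and by bone cells. Monocytes reach injured tissue through the chemokine Ccl2 and its receptor Ccr2, and become macrophages there.

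In the RefSeq annotation of GRCm38.p6, Mmp12 lies at chr9:7344397-7360461 on the plus strand, Chil3 at chr3:106147554-106167564 on the minus strand and Spp1 at chr5:104435111-104441053 on the plus strand. The GENCODE transcripts compared have 10 exons for Mmp12, 11 for Chil3 and 8 for Spp1. The Chil3 transcript shares 1452 of 1538 aligned bases with that of its neighbour Chil4 (94.4%), so a probe's assignment between these near copies is uncertain. The probes' own positions were not used here.

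Because Mmp12 and Chil3 were both high in the same exposed groups, the 250 bases before their RefSeq starts are shown with those of Spp1, each read 5′ to 3′ on the strand of its gene. Capitals mark matches, on either strand, to short motifs known from myeloid and other promoters, whose letters are given after the sequences.
Chil3, chr3:106167565-106167814: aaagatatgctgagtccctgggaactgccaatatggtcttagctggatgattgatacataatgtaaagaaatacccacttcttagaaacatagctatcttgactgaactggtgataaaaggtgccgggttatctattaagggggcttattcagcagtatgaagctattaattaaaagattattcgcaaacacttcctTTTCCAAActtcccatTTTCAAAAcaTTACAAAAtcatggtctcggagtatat
Mmp12, chr9:7344147-7344396: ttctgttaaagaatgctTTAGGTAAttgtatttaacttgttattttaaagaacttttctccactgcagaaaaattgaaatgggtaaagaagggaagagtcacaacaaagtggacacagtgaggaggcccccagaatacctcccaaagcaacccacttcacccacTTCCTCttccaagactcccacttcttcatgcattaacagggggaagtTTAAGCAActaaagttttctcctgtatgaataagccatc
Mmp12 from its second start, chr9:7347124-7347373: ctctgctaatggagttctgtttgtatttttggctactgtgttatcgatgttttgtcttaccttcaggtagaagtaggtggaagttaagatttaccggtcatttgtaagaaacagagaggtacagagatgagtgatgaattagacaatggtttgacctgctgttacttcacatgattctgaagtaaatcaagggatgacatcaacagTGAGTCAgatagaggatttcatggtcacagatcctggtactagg
Spp1, chr5:104434861-104435110: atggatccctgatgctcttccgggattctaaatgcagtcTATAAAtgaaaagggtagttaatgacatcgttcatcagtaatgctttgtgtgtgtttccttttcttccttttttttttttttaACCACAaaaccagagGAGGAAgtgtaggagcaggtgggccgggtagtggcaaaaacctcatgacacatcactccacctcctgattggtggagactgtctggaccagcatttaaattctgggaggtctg
Spp1 from its second start, chr5:104435942-104436191: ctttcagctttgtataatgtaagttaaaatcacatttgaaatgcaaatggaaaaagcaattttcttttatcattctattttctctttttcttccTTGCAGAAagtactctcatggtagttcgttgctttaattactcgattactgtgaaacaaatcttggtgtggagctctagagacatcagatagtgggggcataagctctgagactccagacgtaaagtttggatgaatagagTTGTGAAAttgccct
The Chil3 window held 3 matches to the C/EBP letters TTNNGNAA, all in reverse complement, at 53 to 46, 37 to 30 and 27 to 20 bases before the start. The first Mmp12 window held C/EBP matches at 233 to 226 and 39 to 32 bases and a match to the ETS letters GAGGAA at 86 to 81 bases. The second Mmp12 window held 1 match to the AP-1 letters TGANTCA, at 44 to 38 bases. The first Spp1 window held the ETS letters once and the RUNX letters TGTGGT once, in reverse complement. It also held the TATA letters TATAAA, at 211 to 206 bases before the start. The second Spp1 window held 2 matches to the C/EBP letters, the nearer at 15 to 8 bases, so every gene had such a match in at least 1 window. No 2 matches overlapped. Among 32851 RefSeq promoters of that length, 36.8% held the C/EBP letters, 23.3% ETS, 14% RUNX, 12.4% TATA, 6.75% AP-1 and 5.85% STAT6. These are matches of letters and are not evidence of binding.

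Library totals ran from 4.34 M counts (ovary) to 46.5 M (lung), with tissue medians from 5.93 M in ovary to 20.1 M in lung, in units of 1e6 counts (M). A limit of 3 counts corresponds to 0.0704 to 0.697 CPM (counts scaled to a TMM-adjusted library total of 1 M) across libraries, which covers counting error only, and values near it are a few counts. The totals were adjusted by TMM within each tissue, so levels set side by side across tissues carry that separate scaling. Levels are compared only within a probe. Tissue labels were checked against markers: Lamp3, a marker of lung type II epithelium, had a median of 1013 CPM in lung controls of the 1,2-DCB series and 0 in the other 4 tissues, the heart muscle gene Myl2 (probe Myl2_32080) had 148100 CPM in heart, and the ovarian gene Inha had 3367 CPM in ovary. Mmp12_31440 was near empty, with counts in 2 lung and 2 ovary libraries and at most 11 counts in any, and passed the filter on low values in no tissue. The other 4 probes passed in all 5 tissues. A probe is called higher or lower where the adjusted p of edgeR's quasi-likelihood test was below 0.05 over all probes tested in that tissue.

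In unexposed mice the genes had different home tissues. Chil3 was a lung transcript: its median at 0 ppm was 1555 CPM in lung (1127 to 2196) and 1.03 CPM in ovary (0 to 12.9) in the 1,2-DCB series, and 1788 CPM (1219 to 2193) and 0.895 CPM (0 to 2.00) in the 1,4-DCB series. In kidney, heart and liver the Chil3 medians were 0.0646 to 0.164 CPM, and below lung the ranges of neighbouring tissues overlapped in both series. The lowest lung control lay far above the highest control of any other tissue.

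Mmp12 was highest in ovary. Mmp12_31879 had a median of 24.1 CPM in ovary (5.204 to 69.9), 10.5 CPM in lung (8.69 to 26.6), 4.08 CPM in kidney (2.60 to 4.62), 0.713 CPM in heart (0.239 to 3.77) and 0.208 CPM in liver (0.0471 to 0.483) in the 1,2-DCB controls. Lung and kidney did not overlap, whereas ovary and lung, kidney and heart, and heart and liver did. Mmp12_84187 gave the same order, from 7.52 CPM in ovary and 5.95 CPM in lung to 0.677 CPM in heart and 0.208 CPM in liver. In the 1,4-DCB controls the order of the last pair was turned, with Mmp12_31879 at 0.229 CPM in liver and 0.158 CPM in heart.

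Spp1 was highest in kidney, where tubule epithelium makes it, at a median of 13350 CPM in both series (11010 to 13770 in the 1,2-DCB controls, 12210 to 65780 in the 1,4-DCB controls). Lung followed at 458 CPM (334 to 657), then ovary at 294 CPM (125.5 to 1025), liver at 140 CPM (127.5 to 184) and heart at 2.04 CPM (0.601 to 4.28) in the 1,2-DCB series. In the 1,4-DCB series, lung had 434 CPM (355 to 601), liver 154.3 CPM (134.2 to 171.2), ovary 105 CPM (84.6 to 660) and heart 0.832 CPM (0.151 to 2.55). Ovary and liver overlapped in both series and changed places between them. Heart was the tissue with the least Spp1 in both.

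**Figure D1:**
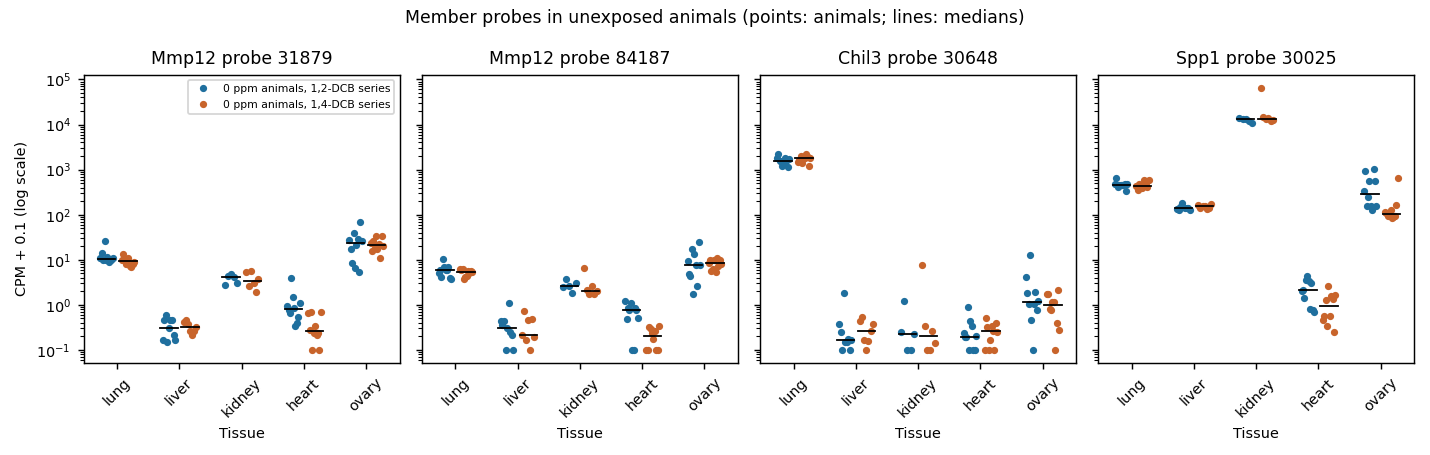
Levels of the 4 probes in animals at 0 ppm, as CPM on a log axis after adding 0.1, by tissue and exposure series; points are animals and lines are medians. Chil3 in lung lies at 1127 CPM or more and Spp1 in kidney at 11010 CPM or more in every animal, and Mmp12 is highest in ovary and lung.

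Past the fit's threshold were 4 of 4 tested member probes in liver at 250 ppm 1,2-DCB, where 49.8% of all probes tested were called. The count was 3 of 4 in ovary (15.9% of all probes), 2 of 4 in heart (8.88%), 1 of 4 in lung (32.6%) and 0 of 4 in kidney (11.7%) at the same concentration. At 400 ppm 1,4-DCB, 1 of 4 was called in heart (13% of all probes) and 0 of 4 in lung (2.61%), liver (31.6%), kidney (1.03%) and ovary (0.479%). Each call was towards higher levels. The genes were chosen on these same differences, so the counts are no test. The concentrations of the isomers differ, so the counts are set side by side and are not a comparison of the compounds.

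**Figure D2:**
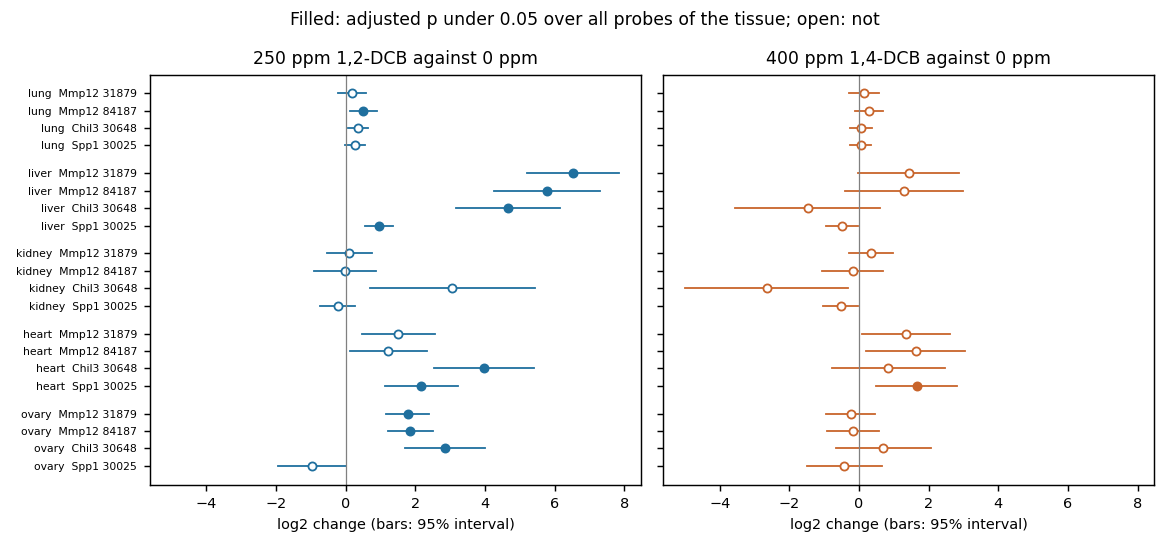
Log2 change against 0 ppm for the 4 probes in the 5 tissues at 250 ppm 1,2-DCB and 400 ppm 1,4-DCB, with 95% confidence intervals; filled points are called at an adjusted p below 0.05. In liver at 250 ppm the changes run from 0.94 (Spp1) to 6.52 (Mmp12_31879), while in lung all 4 points lie between 0.18 and 0.51.

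In liver at 250 ppm 1,2-DCB, Mmp12 was read from 1 to 7 times per control library (Mmp12_31879) and from 23 to 734 times per exposed library. Mmp12_31879 measured 5.25, 34.4, 14.8, 1.3, 31.1 and 40.0 CPM in animals 501, 503, 505, 506R, 507 and 508, against 0.0471 to 0.483 CPM in 9 controls. The groups did not overlap, and the log2 change was 6.52 ± 0.66 (SE). Mmp12_84187 gave 3.65, 27.01, 13.04, 4.18, 19.5 and 24.5 CPM in the same animals, against 0 to 1.01 CPM in controls, a log2 change of 5.79 ± 0.76, or 6.45 without control animal 6. Animals 503 and 508 held the 2 highest values of both probes, and animals 501 and 506R the 2 lowest.

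Chil3 in the same livers measured 2.67, 16.9, 4.98, 2.54, 6.90 and 9.10 CPM, against 0 to 1.69 CPM in controls. These are 45 to 350 counts per library against 0 to 36, with a control median of 1 count. The groups did not overlap and the log2 change was 4.67 ± 0.74. Control animal 4 alone gave 1.69 CPM, and without it the log2 change was 6.35. Even the highest exposed liver remained far under the lung level of Chil3.

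Spp1 was higher by less, and not in every liver. It measured 88.8, 497, 185, 87.8, 263 and 535 CPM against 127.5 to 184 CPM in controls. The values of 4 of 6 livers were above the control median, while animals 501 and 506R were below every control. The log2 change was 0.94 ± 0.20, and the ranges overlapped. When the libraries the submitters did not use were added, it was 0.40 and not called.

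The livers of animals 503, 507 and 508 were also high for Ccr2 and Ccl2. Ccr2 (Ccr2_31936) measured 31.4, 26.8 and 25.1 CPM in animals 503, 508 and 507, 9.26 CPM in 505, 5.25 CPM in 501 and 2.71 CPM in 506R. Control livers had 2.02 to 4.43 CPM except for control animal 4 at 11.3 CPM. Ccl2 was 39.3, 36.5 and 30.2 CPM in 503, 508 and 507 and 1.87 CPM in 506R, against 5.05 to 13.5 CPM in controls. Lyz2, the lysozyme of macrophages and other myeloid cells, was 1054, 1212 and 982 CPM in animals 503, 508 and 507 and 175 CPM in 501. Control animal 4 held more Lyz2 than any of these livers. The receptor Csf1r, which most tissue macrophages carry, measured 0.796 to 2.37 CPM in these 6 livers, and C1qa 62.3 to 108.6 CPM. Across the 6, C1qa rose and fell with Mmp12_31879 (Pearson's r = 0.941), Mmp12_84187 (0.924), Chil3 (0.946) and Spp1 (0.951). For Csf1r the same values were -0.419, -0.246, 0.0148 and -0.104. Lamp3 was at 0 in all 15 liver libraries of these groups, and Chil4 was at 0 in the 6 exposed livers.

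**Figure D3:**
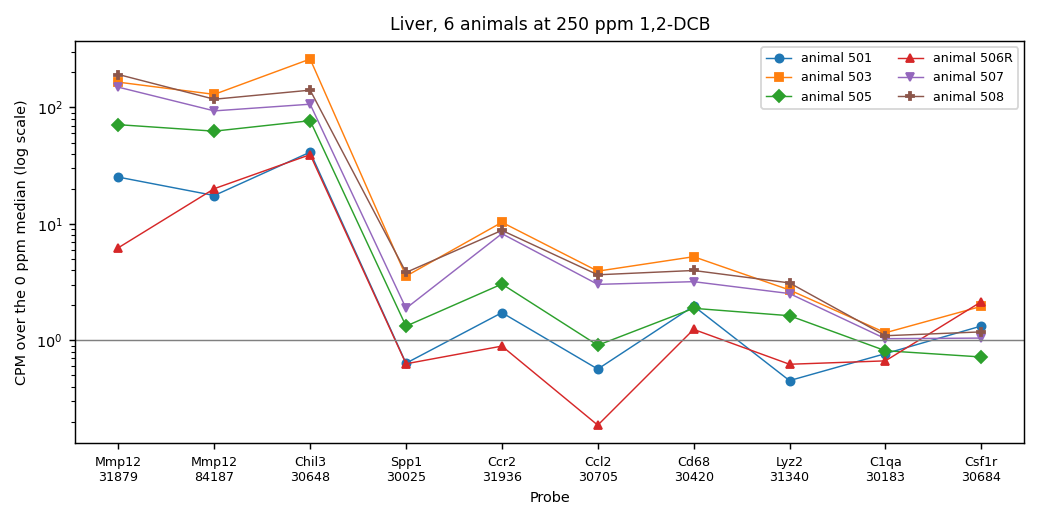
Level in each of the 6 livers at 250 ppm 1,2-DCB divided by the 0 ppm median, on a log axis, for Mmp12 (both probes), Chil3, Spp1 and the myeloid genes Ccr2, Ccl2, Cd68, Lyz2, C1qa and Csf1r; points are animals. Animals 503, 507 and 508 lie high and animals 501 and 506R low for both Mmp12 probes, Spp1, Ccr2 and Ccl2.

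The gene lists were chosen with earlier results of these data known, so their counts and p-values here and below are a description. Among 14 tested probes of monocyte and recruitment genes in these livers, 10 were higher and 1 lower, with a median log2 change of 1.26. Over all probes 25.1% were higher and 24.6% lower. Ccr2_31936 rose by a log2 of 2.10 ± 0.33 (adjusted p = 3.3e-07), and the chemokines Ccl4 and Ccl3 by 2.60 ± 0.46 and 3.20 ± 0.58. Fn1, fibronectin, fell by 0.57. Among 13 macrophage marker probes only 2 rose, Cd68 by 1.68 ± 0.20 (adjusted p = 1.61e-10) and Tyrobp by 0.88 ± 0.19, and 2 fell, Cd74 by 2.08 and Fcgr3 by 0.47; the list's median was 0.0485. Of the genes listed as Kupffer cell markers only Nr1h3 was on the panel, and of its 3 probes 1 fell and none rose. Which liver cells its reads came from was not tested.

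Genes of the members' pathways moved in part. Of the 3 other metalloproteinase probes in liver, Mmp2 rose by 0.72 ± 0.20, and Mmp9 and Mmp14 did not pass. Of 6 probes for metalloproteinase inhibitors and elastic fibre genes 3 rose, among them Timp1, an inhibitor of metalloproteinases, by 3.29 ± 0.52 (adjusted p = 2.86e-07), and Lox, which cross-links collagen and elastin, by 1.48. Of 4 probes for osteopontin receptors and partners, the integrin subunit Itgb5 rose by 0.25; Itgb1 (0.10) and Cd44 (0.37) did not pass. Of 9 lipid-associated macrophage gene probes 2 rose, Lpl by 2.60 and Ctsd by 1.12, and 2 fell, both of Apoe. Which liver cells gave the Apoe reads was not tested. Liver marker genes fell for 6 of 6 probes, and 3 of 6 bile duct and stellate cell marker probes rose. Their part in the Spp1 result was not tested.

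The liver at 400 ppm 1,4-DCB gave none of these calls. Mmp12_31879 measured 0.734, 1.70, 0.114, 0.215 and 0.297 CPM in animals 501 to 505 (log2 change 1.43 ± 0.73), and Mmp12_84187 had a log2 change of 1.29 ± 0.84, or -0.06 without animal 502. Chil3 was at 0 to 0.114 CPM, with a log2 change of -1.47 ± 1.04 on at most 3 counts per library. Spp1 measured 117.2, 99.6, 98.9, 109.8 and 118.9 CPM, all below the 7 controls at 134.2 to 171.2 CPM, with a log2 change of -0.48 ± 0.23 that was not called. Macrophage marker probes were lower for 9 of 13 and higher for 0, with a median log2 change of -0.78, while 13.6% of all probes were lower. Fcgr3 fell by 0.72 ± 0.10 (adjusted p = 4.07e-08) and C1qa, a complement gene of resident macrophages, by 0.95 ± 0.21. Of 14 monocyte and recruitment probes 3 fell, both probes of Vcam1 and Fn1, and 0 rose. Whether liver responded differently to the isomers at these unequal concentrations was not tested.

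**Figure D4:**
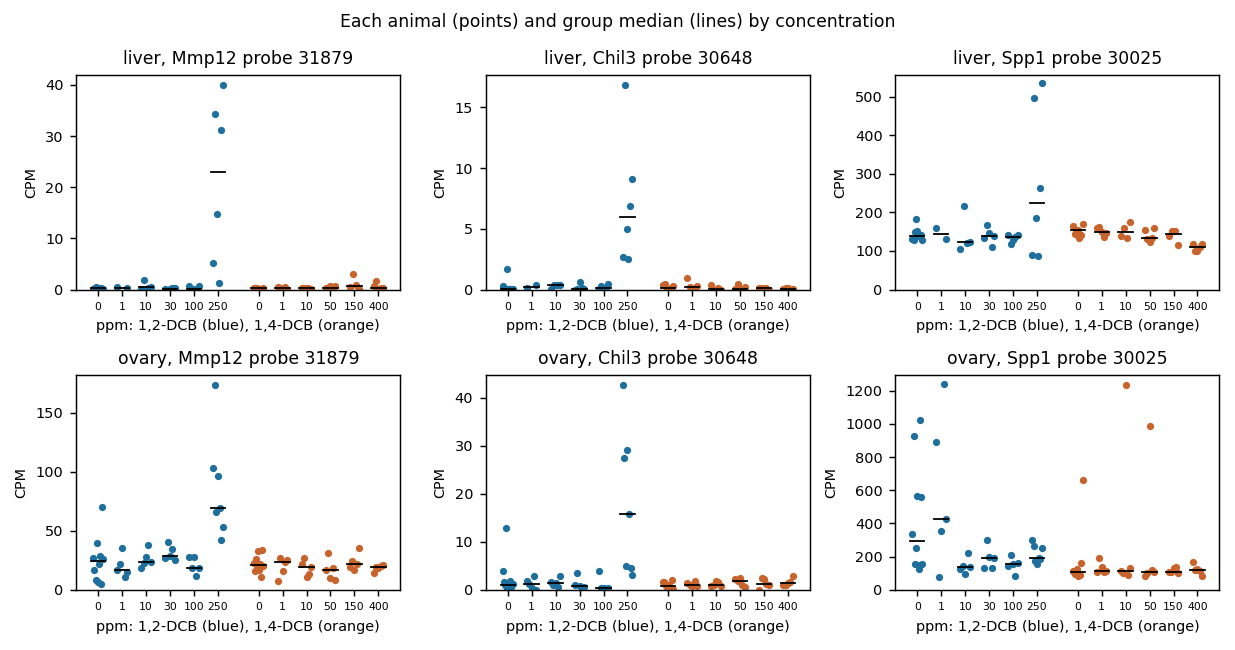
Levels of Mmp12_31879, Chil3 and Spp1 in liver and ovary by concentration (ppm), in CPM on a linear axis, with both compounds; points are animals and lines are group medians. At 250 ppm 1,2-DCB liver Mmp12_31879 reaches 40.0 CPM and ovary Chil3 42.6 CPM, while no liver at 1 to 100 ppm of that compound exceeds 1.81 CPM of Mmp12_31879.

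In ovary at 250 ppm 1,2-DCB, Mmp12 and Chil3 were higher and Spp1 was not. Mmp12_31879 ran from 42.2 to 174 CPM with a median of 69.1 in 7 animals, against 5.204 to 69.9 CPM with a median of 24.1 in 10 controls (log2 change 1.78 ± 0.31, and 2.10 without control animal 9). Mmp12_84187 ran from 11.3 to 57.1 CPM with a median of 40.1, against 1.65 to 24.6 CPM (1.86 ± 0.33). All 7 exposed ovaries were above the control median for both probes, and the ranges overlapped. Control animal 9 was the highest control for Mmp12_31879, at 69.9 CPM, and the other 9 did not exceed 39.3 CPM, below every exposed ovary.

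Chil3 in ovary ran from 3.03 to 42.6 CPM with a median of 15.7 at 250 ppm, against 0 to 4.01 CPM in 9 controls and 12.9 CPM in control animal 4. Its log2 change was 2.86 ± 0.57, and 3.81 without control animal 4. Spp1 ran from 153.4 to 301 CPM in exposed ovaries, inside the control range of 125.5 to 1025 CPM (log2 change -0.97 ± 0.49, not called). Lamp3 was at 0 in 6 of the 7 exposed ovaries and at 0.659 CPM in animal 503.

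Some chemokine ligands rose in ovary. Of 15 monocyte and recruitment probes 4 were higher and 0 lower, while 8.22% of all probes were higher: Ccl2 by 1.86 ± 0.33 (adjusted p = 0.00013), Ccl7 by 1.10, Ccl4 by 1.08 and Ccl3 by 0.97. That count was 1 without animal 501 and 1 or 2 in 7 of 17 fits that each left out 1 animal, 2 with 1 compound per fit and 1 with the clock gene Dbp as a covariate. The Ccr2 probes were not called. Of 13 macrophage markers 4 were higher and 0 lower: Cd68 by 0.97 ± 0.16 (adjusted p = 4.63e-05), Lyz2 by 0.83 ± 0.17, Tyrobp by 0.52 ± 0.15 and Ctss by 0.46 ± 0.14. The median of the list was -0.0347, so its members were split. Of 8 lipid-associated macrophage gene probes 3 rose, Lpl by 1.36, Fabp5 by 0.53 and Apoe (Apoe_31528) by 0.53. Of 4 neutrophil probes 2 fell, S100a8 by 2.90 ± 0.85 and Camp by 1.98 ± 0.61. Control animal 4 had 1208 CPM of S100a8 against 2.2 to 21.8 CPM in the other controls.

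Some matrix genes fell in ovary, where 7.7% of all probes were lower. Mmp14 fell by 0.45 ± 0.12, as 1 of 3 other metalloproteinase probes, and 3 of 7 inhibitor and elastic fibre probes fell with 0 higher, Timp1 by 1.56, Lox by 0.93 and Fbn1 by 0.35. Of 4 osteopontin receptor probes, Itgb1 fell by 0.22. No member was called in ovary at 400 ppm 1,4-DCB, with log2 changes of 0.70 ± 0.68 for Chil3, -0.24 ± 0.36 for Mmp12_31879, -0.17 ± 0.38 for Mmp12_84187 and -0.42 ± 0.54 for Spp1. No macrophage or monocyte probe was called there. At an unadjusted p below 0.05, 2 of 13 and 0 of 15 were, respectively.

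In heart, which has little of any member, Chil3 and Spp1 were higher at 250 ppm 1,2-DCB. Chil3 ran from 0.122 to 6.21 CPM with a median of 1.78 in 7 hearts, or 1 to 56 counts, against 0 to 0.776 CPM in 10 controls (log2 change 3.97 ± 0.72). Without control animal 4 it was 4.59. Animals 504 (0.205 CPM) and 508 (0.122 CPM) lay inside the control range, and the other 5 above it. Spp1 ran from 3.77 to 19.7 CPM with a median of 7.24, against 0.601 to 4.28 CPM in controls (2.17 ± 0.53), and animal 506R alone was inside the control range. Mmp12_31879 (1.51 ± 0.53) and Mmp12_84187 (1.22 ± 0.56) were not called, with medians of 2.69 and 1.26 CPM. Lamp3 was at 0 in 6 of the 7 hearts and at 0.332 CPM in animal 506R. Of 14 monocyte and recruitment probes 2 rose, where 4.07% of all probes were higher: Ccl2 by 2.24 ± 0.20 (adjusted p = 5e-13) and Ccl7 by 1.78 ± 0.25. Of 13 macrophage probes Cd68 rose by 0.34, while Cd74 and Csf1r fell by 2.02 and 1.63.

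Heart Spp1 was called at 400 ppm 1,4-DCB, at 3.17, 1.56, 7.56, 0.412 and 2.81 CPM in animals 501 to 505, against 0.151 to 2.55 CPM in controls (log2 change 1.66 ± 0.58). The call rested on few animals: it was lost in 10 of 15 fits that each left out 1 animal, and the change was 1.02 without animal 503. Mmp12_84187 was at 0.283 to 0.489 CPM, on 4 to 8 counts per library, above all controls of its own series (0 to 0.247 CPM). Its log2 change was 1.63 ± 0.71 and was not called. Hearts of the 1,2-DCB controls held 0 to 1.131 CPM of this probe with a median of 0.677, so these values lie inside the range of unexposed hearts. Chil3 changed by 0.84 ± 0.81, or -0.54 without animal 501. Of 14 monocyte and recruitment probes 6 rose, where 8.84% of all probes were higher, among them S100a4 by 1.31 ± 0.23, Ccl7 by 1.26 and Ccl2 by 0.94. Animal 501 also held 765 CPM of Cyp2f2, an enzyme of lung and liver, against 0.73 to 1.79 CPM in the other 4 hearts. Its part in the Chil3 value was not tested.

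In lung, where Chil3 is abundant, exposure moved the members little. Mmp12_84187 measured 4.72 to 14.5 CPM with 5 of 6 animals above the control median at 250 ppm 1,2-DCB, against 3.71 to 10.4 CPM in controls (log2 change 0.51 ± 0.20, called). Without animal 506R the change was 0.27, and the call was lost in 6 of 16 fits that each left out 1 animal. Mmp12_31879, the other Mmp12 probe, changed by 0.18 ± 0.20, or -0.18 without animal 506R. Chil3 ran from 1549 to 2631 CPM (0.36 ± 0.15) and Spp1 from 286 to 904 CPM (0.26 ± 0.15), neither called; the Chil3 change passed in 6 of those 16 fits. The log2 changes at 400 ppm 1,4-DCB were 0.04 to 0.29.

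Of 15 lung monocyte and recruitment probes at 250 ppm 1,2-DCB 3 rose and 4 fell, where 17.6% of all probes were higher and 15% lower. Ccl2 rose by 2.07 ± 0.31 (adjusted p = 1.66e-07) and Ccl7 by 1.71 ± 0.36, and both Vcam1 probes, Ly6c1 and Ccl4 fell. Of 14 macrophage probes, Cd68 rose by 0.37 and Cd86 and Cd74 fell by 1.17 and 0.55. None of 6 alveolar macrophage marker probes was called, and none reached an unadjusted p below 0.05. Chil4 was called higher (4.66 ± 1.31), but 1 animal, 508, held 13.5 CPM and the other 5 held 0 to 0.224 CPM.

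In kidney no member was called in the fit over all groups of both compounds. Spp1 measured 9387 to 11800 CPM at 250 ppm 1,2-DCB against 11010 to 13770 CPM in 5 controls (log2 change -0.23 ± 0.25). Every exposed kidney was below the control median of 13350 CPM, and the ranges overlapped. The standard error comes from that fit, which also holds the kidneys that stood out in the other series, given below. With 1 compound per fit the Spp1 change was -0.23 and passed. With the level of Dbp as a covariate it was 0.45. Chil3 measured 0.498 to 5.54 CPM against 0 to 1.11 CPM, 7 to 50 counts against 0 to 13, and its change of 3.06 ± 1.18 did not pass. Without control animal 3, which held the 13 counts, it was 5.00 and passed. The Mmp12 probes changed by 0.11 ± 0.32 and -0.02 ± 0.44. Of 13 macrophage probes 0 rose and 2 fell, Cd74 by 1.05 and Fcgr3 by 0.21, and 0 of 15 monocyte and recruitment probes was called, with 1 at an unadjusted p below 0.05.

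Single kidneys stood out in the 1,4-DCB series. Control animal 2 held 65780 CPM of Spp1 against 12210 to 15000 CPM in the other 5 controls, 7.42 CPM of Chil3 against 0 to 0.234 CPM, and 6.61 CPM of Mmp12_84187. The same kidney held 6923 CPM of Clu and 2417 CPM of Lcn2, genes that injured tubules express, where the others held 1322 to 1802 and 21.3 to 74.7 CPM. Its Ccr2 was 52.9 CPM against 3.47 to 13.7 CPM and its Cd68 146.2 CPM against 17.4 to 30.2 CPM. At 400 ppm, animal 505 held 25120 CPM of Spp1 against 11680 to 13850 CPM in the other 4, with Clu at 4004 CPM, Lcn2 at 573 CPM and Ccr2 at 52.01 CPM. The Spp1 change at 400 ppm was -0.53 ± 0.25 with control animal 2 and 0.19 without it, and that of Chil3 was -2.65 ± 1.16 and 1.03. Chil4 was called lower at 400 ppm (-3.62 ± 0.76), and control animal 2 held 52.5 CPM of it against 1.00 to 2.96 CPM in the other controls.

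**Figure D5:**
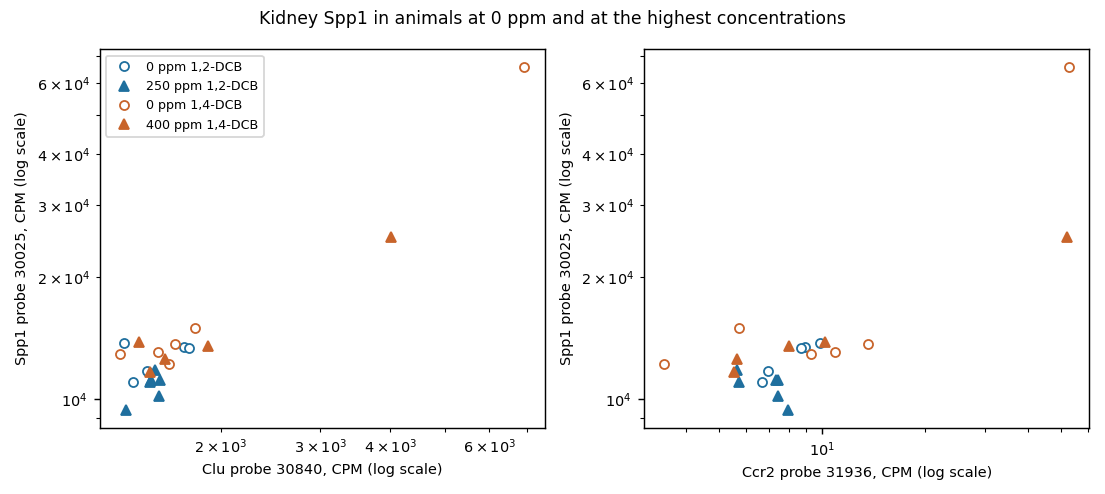
Kidney Spp1 against the tubule injury gene Clu and against Ccr2, in CPM on log axes; points are animals at 0 ppm and at the highest concentration of each compound. Control animal 2 of the 1,4-DCB series (Spp1 65780 CPM, Clu 6923 CPM) and animal 505 at 400 ppm (25120 and 4004 CPM) lie apart from the rest on both panels.

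At the lower concentrations 2 of 160 member tests were called, against 2.19% of all probe tests at those concentrations. Both calls were Mmp12 in heart at 150 ppm 1,4-DCB, where 27.2% of all probes were called. Mmp12_84187 measured 0.398, 1.11, 0.443, 0.654 and 1.46 CPM against 0 to 0.247 CPM in controls (log2 change 2.81 ± 0.66), and the groups did not overlap. Mmp12_31879 measured 1.19, 1.16, 0.591, 0.151 and 1.53 CPM against 0 to 0.594 CPM (1.86 ± 0.61), and without animal 405 its change was 1.60 and not called. Animal 405 also held 19.4 CPM of Ccr2, and animal 403 held 187 CPM of Cyp2f2. Heart controls of the 1,2-DCB series held 0 to 1.131 CPM of Mmp12_84187 and 0.239 to 3.77 CPM of Mmp12_31879. Those ranges overlap the values at 150 ppm. In liver at 150 ppm 1,4-DCB, Mmp12_31879 ran from 0.113 to 3.02 CPM in 4 animals (2.21 ± 0.75, not called). In liver at 100 ppm 1,2-DCB its median was 0.0513 CPM.

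The isomers could be compared at 1 and 10 ppm, which both series used. These differences come from the same libraries by which the genes were chosen, so they and their p-values are a description. The liver group at 1 ppm 1,2-DCB held only 2 animals. Of 40 differences (the change with 1,2-DCB minus that with 1,4-DCB) 0 were called by edgeR's quasi-likelihood test and 4 had an unadjusted p below 0.05, while 0.321% of all such probe tests were called. The widest was heart Mmp12_84187 at 10 ppm, -3.48 (95% interval -5.69 to -1.27, adjusted p = 0.132), followed by ovary Spp1 at 10 ppm, -2.59 (-4.11 to -1.06, adjusted p = 0.21). One ovary at 10 ppm 1,4-DCB held 1232 CPM of Spp1. Heart Mmp12_31879 differed by -2.54 at 1 ppm (-4.37 to -0.72, adjusted p = 0.925) and by -2.18 at 10 ppm (-4.03 to -0.33, adjusted p = 0.333). In lung, Chil3 differed by 0.46 at 1 ppm (-0.0025 to 0.91) and 0.41 at 10 ppm (-0.032 to 0.85). In liver the interval for Spp1 at 10 ppm was -0.70 to 0.65, and that for Mmp12_31879 was -0.92 to 3.79, so the latter did not exclude a difference of several fold in these groups of 4 animals each.

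The control animals of the series differed from each other for 3 of 20 tests, where 1.98% of all probe tests pooled over tissues were called. The calls were uneven, with 167 of 2713 probes in ovary and 46 of 2454 in heart. The genes were chosen on levels in these libraries, so this count too is a description. Heart Mmp12_31879 and Mmp12_84187 were higher in the 1,2-DCB controls by 1.94 ± 0.56 and 2.30 ± 0.62, and ovary Spp1 by 1.38 ± 0.44. Without heart control animal 4 of the 1,2-DCB series both heart calls were lost, at 1.43 and 2.27; over all 20 fits that left out 1 control they were lost in 12 and 8. The ovary Spp1 call was lost in 13 of 20 such fits, with values from 1.14 to 1.98. These controls enter the heart changes and isomer differences above. That animal held the highest Lyz2, Ccr2 and S100a8 of its control group in heart (2353, 23.1 and 55.1 CPM), ovary (3424, 88.9 and 1208 CPM) and liver (1527, 11.3 and 222 CPM).

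Likeness to other probes was measured as the correlation across a tissue's libraries after subtracting group means, and is a description, since libraries share depth and composition. In lung (70 libraries), Chil3 was most like Lyz2 (Pearson's r = 0.793, Spearman's rho = 0.799). Spp1 was most like Tes (0.752, 0.699), then Srp14 (0.749, 0.771), Anxa1 (r = 0.722), Hsd17b10 (0.706, 0.725) and Lamp3 (0.697, 0.7). Chil3 and Spp1 were alike at 0.571 and 0.632 there. In kidney (51 libraries), Spp1 was most like Clu (0.911, 0.671), then the histone genes Hist1h2bp (0.878, 0.571) and Hist1h3c (0.867, 0.589). Timp1 (0.856, 0.544) and Icam1 (r = 0.853) followed. The correlation with Clu was 0.69 without the 2 most distant libraries. In liver (61 libraries), Spp1 was like Gpr137b-ps (0.82, 0.443), Vim (r = 0.758) and Clu (0.756, 0.228), with the rank values far lower.

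In heart (72 libraries), Spp1 was most like Clu (0.602, 0.517) and Lox (r = 0.588). In ovary (72 libraries), the Mmp12 probes were most like each other (0.792, 0.734), followed for Mmp12_31879 by Degs1 (r = 0.578), Elovl6 (0.544) and Fabp5 (0.508), genes of lipid metabolism. In lung the Mmp12 probes were alike at only 0.315 and 0.144, although both carry the same gene symbol. Ovary Chil3 was most like Camp (0.528, 0.357) and Ccl2 (0.523, 0.409), and like Mmp12_31879 at r = 0.217. Ovary Spp1 was most like Cyp11b1 (0.764, 0.67), Col12a1 (0.706, 0.676), Akr1b10 (0.697, 0.51) and Lox (0.682, 0.517).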

How the data were processed

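The authors deposited read counts per probe, adjusted for probe attenuation, mapped with Bowtie 1.3.1 per the submitters' processing notes; the genome build of the probe manifest is not given in the sources used here. The labels' protocols state RNAlater storage, QIAzol extraction and the Mouse S1500+ TempO-Seq panel. Attenuation lowers the reads of abundant transcripts at the probe, and the adjusted counts are scaled back. Spp1 counts in the deposited file are all multiples of 2, as for 59 probes with a visible whole factor from 2 to 21; such factors cancel between groups.

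Libraries marked as used (326; 34 were not) were grouped by tissue, compound and concentration from the labels. Per tissue, probes were filtered (filterByExpr), scaled by TMM and fitted with edgeR 4.0.16 (limma 3.58.1, R 4.3.3) quasi-likelihood tests over all groups of both compounds. P-values were two-sided and adjusted by Benjamini-Hochberg over all probes of a comparison. The script was tested on simulated data. CPM were computed on TMM-adjusted library totals, separately per tissue, and values ± are standard errors. Likeness used log2 CPM with a prior count of 2, less group means.

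The members and lists were chosen with earlier results of these data known. Named genes are all member probes, for each list up to 4 called probes with the smallest p per highest concentration, osteopontin receptors, chitinase genes, lung epithelial markers and listed metalloproteinases whether or not they passed, and up to 5 probes by likeness. Other named genes (Lyz2, C1qa, Csf1r, Ccl2 and Ccr2 by animal, and genes of single kidneys) were chosen after their values were seen. Alternatives were DESeq2 1.42.0 (size factors and test), no filter, all libraries, 1 compound per fit, factors undone, the level of Dbp as a covariate, and leaving out each animal. The labels name no extraction or sequencing batch.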

Additional observations from a re-analysis of the deposited data

Results flagged for a closer look

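Dixon's 95% limit was applied to 80 sets of values, each with 5 to 10 animals. The sets were 4 probes in the 0 ppm and highest groups of each tissue. In 19, an animal's member value stood apart from the others. About 4 (1 in 20) would come by chance for normal values in independent sets. Many sets rest on few counts, and sets share animals or a gene, so that rate need not hold here. Control animal 4 of the 1,2-DCB series stood apart in 4 tissues: in lung for Mmp12_31879 (26.58 CPM, others 8.685 to 14.01) and Mmp12_84187 (10.35 CPM), in liver for Chil3 (1.694 CPM) and Spp1 (183.8 CPM), in heart for Chil3 (0.7764 CPM) and Mmp12_31879 (3.771 CPM), and in ovary for Chil3 (12.9 CPM). Other 1,2-DCB controls apart were animal 2 for lung Spp1 (656.7 CPM), animal 6 for liver Mmp12_84187 (1.007 CPM), animal 3 for kidney Chil3 (1.114 CPM) and animal 9 for ovary Mmp12_31879 (69.93 CPM).

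In the 1,4-DCB series, control animal 2 stood apart in kidney for Chil3 (7.42 CPM), Mmp12_84187 (6.612 CPM) and Spp1 (65780 CPM), and control animal 10 in ovary for Spp1 (660.1 CPM). At 400 ppm, animal 505 stood apart in kidney for Mmp12_84187 (5.175 CPM) and Spp1 (25120 CPM), animal 502 in liver for Mmp12_84187 (1.927 CPM) and animal 501 in heart for Chil3 (0.9497 CPM).

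For 3 members every animal of 1 tissue lay on one side of its control median and every animal of another tissue on the other side, and the difference was not tested. At 400 ppm 1,4-DCB, Chil3 was lower in liver (log2 change -1.467) and higher in ovary (0.70), and Mmp12_31879 was lower in ovary (-0.2433) and higher in heart (1.36). At 250 ppm 1,2-DCB, Spp1 was lower in kidney (-0.2318) and higher in heart (2.17).

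Among libraries the submitters did not use, the kidney of animal 501 at 250 ppm 1,2-DCB, labelled for possible contamination by other tissue, held 1.949 CPM of Chil3 (26 counts) against at most 1.114 CPM in the controls.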

How the results depend on the processing

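Of 261 alternative values for the changes at the highest concentrations other than leaving out an animal, 241 kept their direction where called and their side of the threshold, 5 lost the call, 10 gained one, 5 moved and 0 called changes turned; of 576 that left out 1 animal, 548 kept it, 16 lost and 10 gained a call and 2 moved. The cause was not tested for any of these. With DESeq2's scaling, lung Chil3 at 250 ppm 1,2-DCB passed at 0.37, and DESeq2's own test gave 0.37 there and 1.51 for heart Mmp12_31879, both passing. With all libraries, Spp1 in liver was 0.40 at 250 ppm (call lost) and -1.04 at 400 ppm, and kidney Chil3 at 250 ppm passed at 3.19. With 1 compound per fit, lung Mmp12_84187 lost its call at 0.50 and heart Spp1 at 400 ppm at 1.67, while liver Spp1 at 400 ppm passed at -0.48, kidney Spp1 at 250 ppm at -0.23 and kidney Chil3 at 3.04. The measured level of the clock gene Dbp was also used as a covariate, as a stand-in for time of day. Dbp may itself respond to exposure, which was not tested. With it, lung Mmp12_84187 lost its call at 0.53 and heart Spp1 at 400 ppm at 1.79. Kidney Chil3 at 250 ppm (7.07), heart Mmp12_31879 at 250 ppm (2.04) and heart Mmp12_84187 at 400 ppm (2.30) passed. Spp1 was 0.45 in kidney at 250 ppm, 0.14 at 400 ppm and 0.034 in ovary at 250 ppm. Kidney Chil3 at 400 ppm was 1.85. Undoing the attenuation factors and dropping the filter changed no call at the highest concentrations.

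Leaving out 1 animal gave, at 250 ppm 1,2-DCB, 0.27 to 0.64 for lung Mmp12_84187, 0.062 to 0.39 for lung Spp1, 0.27 to 0.43 for lung Chil3, 2.62 to 5.00 for kidney Chil3 and 1.39 to 2.02 for heart Mmp12_31879. At 400 ppm 1,4-DCB it gave -0.79 to 0.19 for kidney Spp1, -3.27 to 1.03 for kidney Chil3 and 1.02 to 1.94 for heart Spp1. The count of called isomer differences ranged from 0 to 1 and was 1 with all libraries (liver Spp1 at 1 ppm, 3.40), and that of control series differences from 1 to 4. In ovary at 250 ppm the count of higher macrophage probes was 2 with Dbp, and that of higher monocyte and recruitment probes was 2 with 1 compound per fit, 1 with Dbp and 1 to 4 when 1 animal was left out. Members near 1 CPM in heart, liver and kidney rest on few counts, which limits their precision. No paired analysis was possible because exposed and control libraries came from different animals, and equal animal numbers in the series are different animals.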

Other observations

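Of the calprotectin genes S100a8 and S100a9, which neutrophils express, only the first passed in liver. At 400 ppm 1,4-DCB, S100a8 (S100a8_84136) rose by a log2 of 4.80 ± 0.58 (adjusted p = 1.18e-09 by edgeR's quasi-likelihood test), with no overlap between exposed livers and controls. Its partner S100a9 changed by -0.21 ± 0.90 and did not pass; the difference between the probes was not tested. At 250 ppm 1,2-DCB, the neutrophil granule gene Camp fell in liver by 2.94 and Lcn2, an acute phase gene, rose by 1.58. The control median of Camp was 0.069 CPM, below the limit of 3 counts in liver (0.0757 CPM or more). Its fall therefore rests on the controls above that median, the highest at 21.75 CPM. Pancreatic Amy2a5, at 0 in most control livers, ran from 0.654 to 9.31 CPM in the livers at 250 ppm; its source was not tested.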
